A study of Mus musculus with 8 samples.

Results

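The genes described here are the subunits of the transcription factor NF-kB and their inhibitors, 10 genes taken by exact symbol from the 24421 genes of the count tables: Nfkb1, Nfkb2, Rel, Rela and Relb (subunits), Nfkbia, Nfkbib, Nfkbie and Bcl3 (the IkB family) and Tnfaip3 (a ubiquitin-editing inhibitor). All 10 were present and all 10 passed the filter on low counts. They were measured by 3' RNA-seq, which counts tags from the ends of polyadenylated transcripts, in mouse CD8+ T cells grown for 48 hours on surfaces coated with antibodies to CD3 and CD28. The 4 control libraries carry the genotype LKB1 wild type and the other 4 are LKB1-deficient. LKB1 is the kinase encoded by Stk11 that switches on AMPK. How LKB1 was removed, and the strain, age and number of animals, were not stated in the sources used, so p-values cover the spread between these libraries, which may be technical.

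NF-kB is a family of paired DNA-binding proteins. In resting T cells IkB proteins hold the pairs in the cytoplasm. A signal from the T cell receptor and CD28 runs through adaptor proteins to the IKK kinases, which mark IkB for destruction and free the pairs to enter the nucleus. Several of the genes they switch on encode their own inhibitors, so transcripts such as Nfkbia and Tnfaip3 are widely read as feedback of the pathway. Protein level, IkB destruction and nuclear entry were not measured here.

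Promoter sequence was searched for the motif that NF-kB is known to bind. RefSeq windows (build GRCm38.p6, 250 bases before to 50 after each annotated start) were found for 8 of the 10 genes, all except Nfkb1 and Relb. The 10-base kappaB consensus was searched on both strands, with overlapping matches kept. At least 1 match lay in the windows of 6 of the 8 genes, against 9.55% of all 27025 genes with a window and 8.46% of all windows of that length. Rela and Nfkbib had none, which says only that these letters are not in these windows. Nfkb2 had 3 windows and Tnfaip3 had 2. Further Nfkb2 matches, not shown, lay from -236 to -227 and from 11 to 20 in window 2. Windows 2 and 3 overlap, and the match from -225 to -216 in window 3 is the same site as that from 11 to 20 (chr19:46305705-46305714). Starts here are those of RefSeq, and the bases shown for Nfkb2 and Tnfaip3 lie inside the GENCODE vM21 gene spans given below. The 5 stretches with a match in the 150 bases before the start are shown so that the matched letters and their surroundings can be read. Each runs 5′ to 3′ on the gene's strand from position -150 to -1, and the capitals mark the matches.
Nfkb2, chr19:46304587-46304736, plus strand: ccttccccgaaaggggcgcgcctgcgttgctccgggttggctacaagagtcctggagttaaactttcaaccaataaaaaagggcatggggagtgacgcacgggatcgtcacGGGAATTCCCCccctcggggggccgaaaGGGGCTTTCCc
Rel, chr11:23770970-23771119, minus strand: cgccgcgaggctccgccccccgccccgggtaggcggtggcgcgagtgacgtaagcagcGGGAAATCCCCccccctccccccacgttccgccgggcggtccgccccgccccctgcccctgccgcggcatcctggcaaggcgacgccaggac
Nfkbia, chr12:55492648-55492797, minus strand: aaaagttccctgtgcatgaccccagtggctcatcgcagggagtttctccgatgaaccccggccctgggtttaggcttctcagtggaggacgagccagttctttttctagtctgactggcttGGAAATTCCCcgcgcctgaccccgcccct
Nfkbie, chr17:45555550-45555699, plus strand: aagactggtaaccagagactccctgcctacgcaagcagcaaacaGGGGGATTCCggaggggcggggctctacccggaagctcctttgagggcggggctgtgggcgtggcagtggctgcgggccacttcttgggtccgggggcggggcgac
Tnfaip3, chr10:19015411-19015560, minus strand: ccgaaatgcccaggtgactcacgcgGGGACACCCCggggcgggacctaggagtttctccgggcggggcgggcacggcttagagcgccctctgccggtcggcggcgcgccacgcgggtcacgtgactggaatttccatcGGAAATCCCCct
In Bcl3 the match lay just after the start, from position 3 to 12 (chr7:19822744-19822753, minus strand), and reads GGGAAGTCCC on the gene's strand. Nfkbia had 1 match, from -29 to -20. In Tnfaip3 there were matches from -125 to -116 and from -12 to -3. Matches overlapped in Nfkb2 and in Rel, where an unbroken stretch of capitals longer than the 10-base consensus fits it in more than 1 register. A site in each of Nfkb2, Rel, Tnfaip3 and Bcl3 matched on both strands at the same position. These matches are a description of sequence and were not tested for binding.

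None of the 10 genes passed the test between the groups (edgeR quasi-likelihood test over 10396 genes, Benjamini-Hochberg adjusted p under 0.05), although 22.5% of all tested genes did, 12.4% higher and 10.1% lower in LKB1-deficient cells. At an unadjusted p under 0.05 the count was 4 of 10 (Nfkbia, Tnfaip3, Bcl3 and Relb), against 39.3% of all tested genes. By limma-voom 0 of 10 passed, against 21.3% of all genes (11.6% higher and 9.72% lower). By the DESeq2 Wald test 3 of 10 passed, all higher (Nfkbia, Tnfaip3 and Bcl3, adjusted p = 0.0319, 0.0305 and 0.0358), against 29.3% of all genes (16.4% higher and 12.9% lower). The log2 fold change was positive for 9 of 10, of which Nfkb1, Nfkb2 and Nfkbib turned negative under total count scaling and Nfkbib also under upper quartile scaling, with a median of 0.18 against 0.00 over all tested genes. Groups that did not overlap were found for Relb alone, lower in LKB1-deficient cells, against 26.1% of tested genes in either direction and 14.1% lower. A missed threshold does not show equal levels, so the 95% interval of each difference is given with it. These intervals lay within 1.5-fold in either direction for 5 of the 10 genes and within 2-fold for 7. Gene positions are those of GENCODE vM21 on GRCm38. Levels below are CPM, counts scaled to a common library size by TMM, in the order of replicates 1 to 4. In bulk libraries a smaller share of cells that express a gene and less RNA per cell cannot be told apart.

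**Figure D1:**
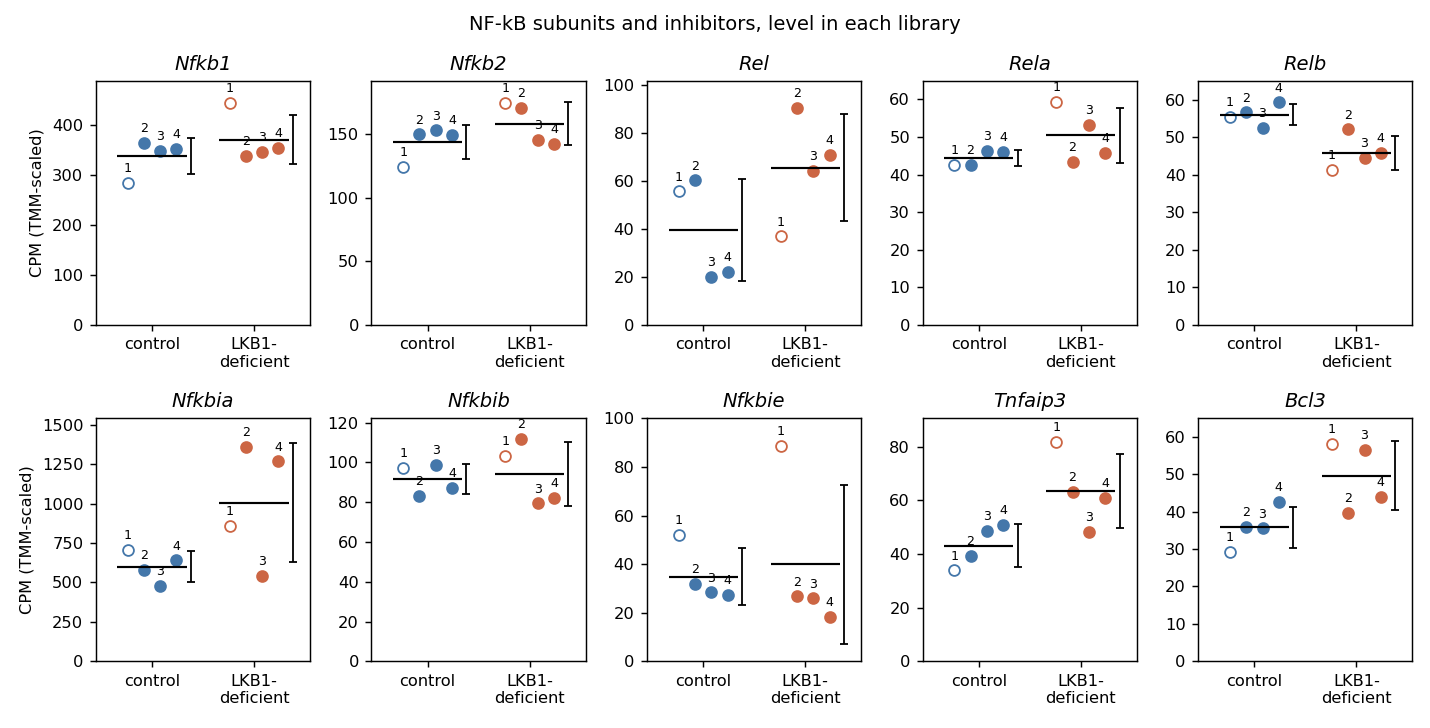
CPM of the 10 genes (vertical axes, each from 0) in the 4 control (blue) and 4 LKB1-deficient (orange) libraries, numbered by replicate; horizontal lines are group means, bars SD, and open points the replicate 1 libraries. The groups overlap for every gene except Relb, and the open LKB1-deficient point is the highest of all 8 libraries for 6 genes.

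Among the subunits, Nfkb1 (chr3:135584655-135691547, minus strand) encodes a precursor that is processed to a DNA-binding partner of the other subunits. Its level was 285, 364, 348 and 353 CPM in control and 444, 338, 346 and 354 CPM in LKB1-deficient libraries. LKB1-deficient replicate 1 stood above all others and control replicate 1 below all others, while the remaining 6 libraries lay between 338 and 364 CPM. This is a log2 fold change of 0.14 ± 0.15 (SE, n = 4 per group, edgeR adjusted p = 0.52, 95% interval -0.19 to 0.46). Nfkb2 (chr19:46304320-46312385, plus strand) encodes the precursor of the alternative pathway, whose partner is RelB. It was at 124, 149.7, 152.9 and 149 CPM in control and 175, 171, 146 and 142 CPM in LKB1-deficient libraries. These ranges overlapped, with a log2 fold change of 0.14 (95% interval -0.15 to 0.42, edgeR adjusted p = 0.461).

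Rela (chr19:5637483-5648130, plus strand) encodes the main activating partner in many cell types. Control libraries held 42.6, 42.6, 46.4 and 46 CPM, and LKB1-deficient libraries 59.3, 43.4, 53.3 and 45.8 CPM. Replicates 2 and 4 of the LKB1-deficient group sat inside the narrow control range, and replicates 1 and 3 above it. The groups differed by a log2 fold change of 0.18 ± 0.13 (SE, edgeR adjusted p = 0.311). Relb (chr7:19606217-19629438, minus strand), the subunit of the alternative pathway, was the single gene whose groups separated, at 55.3, 56.6, 52.6 and 59.3 CPM in control against 41.3, 52.1, 44.5 and 45.8 CPM in LKB1-deficient libraries. LKB1-deficient replicate 2 came close to control replicate 3. The difference was small, with a log2 fold change of -0.29 ± 0.12 (SE, 95% interval -0.55 to -0.03), and its adjusted p in edgeR was 0.0978. It passed when libraries were scaled by upper quartile (log2 fold change -0.39, adjusted p = 0.0466) or total count (-0.46, adjusted p = 0.0353), which move the median of all genes to -0.10 and -0.16. Under these scalings 1 of the 10 genes was called, against 23.7% of all tested genes with upper quartile (9.84% higher, 13.9% lower) and 23.1% with total count (7.97% higher, 15.2% lower).

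Rel (chr11:23736847-23770970, minus strand) encodes c-Rel, the lymphocyte subunit that T cells need for Il2 and Il2ra expression. It varied most among the subunits. Control replicates 1 and 2 held 55.6 and 60.2 CPM (620 and 742 counts) and control replicates 3 and 4 held 20.1 and 21.9 CPM (266 and 169 counts). The LKB1-deficient libraries held 36.8, 90.5, 64.1 and 70.8 CPM. The control group thus split into a high and a low pair, and the LKB1-deficient libraries other than replicate 1 lay above both. The log2 fold change of 0.73 ± 0.39 (SE, 95% interval -0.13 to 1.59) had an edgeR adjusted p of 0.187, and on the linear scale the interval runs from 0.913-fold to 3.01-fold.

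Among the inhibitors, Nfkbia (chr12:55489410-55492647, minus strand) encodes IkB alpha, the fast feedback inhibitor. It was at 705, 578, 481 and 640.0 CPM in control and 858, 1357, 542 and 1267 CPM in LKB1-deficient libraries. LKB1-deficient replicates 2 and 4 were about equally high, replicate 1 was moderately above the controls, and replicate 3 lay within them. This gave the largest log2 fold change of the 10 genes, 0.74 ± 0.27 (SE, 95% interval 0.14 to 1.34, edgeR adjusted p = 0.0701). LKB1-deficient replicates 2 and 4 also lay farthest from the controls on the first principal component of all genes, at 51.7 and 54.4 against 12.5 and 6.79 for replicates 1 and 3. Without these 2 libraries the log2 fold change of Nfkbia was 0.22 (adjusted p = 0.6), and 0 of the 10 genes passed, against 2.37% of all tested genes (1.48% higher and 0.895% lower). Without LKB1-deficient replicate 3 it was 0.94 and passed (adjusted p = 0.0146).

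Nfkbib (chr7:28758251-28767512, minus strand) encodes IkB beta, a slower inhibitor. Its level was 97.1, 83.1, 98.7 and 87.2 CPM in control and 103, 112, 79.4 and 82.1 CPM in LKB1-deficient libraries, so each group straddled the other. The log2 fold change between the groups was 0.04 (95% interval -0.28 to 0.36, edgeR adjusted p = 0.869). The gene overlaps Sirt2 on the other strand by 778 bases in the GENCODE vM21 annotation. Whether reads were counted by strand is not stated in the sources used.

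Nfkbie (chr17:45555703-45563169, plus strand) encodes IkB epsilon, which acts later in the feedback. It was at 52.2, 31.9, 28.4 and 27.2 CPM in control and 88.8, 26.8, 25.9 and 18.3 CPM in LKB1-deficient libraries. Replicate 1 was the highest library of both groups, and the other LKB1-deficient libraries were all below the other control libraries. The log2 fold change over all 8 libraries was 0.18 ± 0.44 (SE, 95% interval -0.80 to 1.17, edgeR adjusted p = 0.791). It turned to -0.56 without LKB1-deficient replicate 1 (adjusted p = 0.135).

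Bcl3 (chr7:19808462-19822770, minus strand) encodes an IkB-like protein that stays in the nucleus and works with the small subunits on DNA. It was at 29.2, 35.9, 35.5 and 42.5 CPM in control and 58.1, 39.6, 56.6 and 43.9 CPM in LKB1-deficient libraries. LKB1-deficient replicate 2 alone was below the highest control. The log2 fold change was 0.47 ± 0.17 (SE, 95% interval 0.10 to 0.84, edgeR adjusted p = 0.0634). Tnfaip3 (chr10:19000910-19015657, minus strand) encodes a ubiquitin-editing enzyme that shuts off signalling to IKK. Its levels were 33.9, 39.4, 48.7 and 50.8 CPM in control and 81.7, 63.1, 48.2 and 60.8 CPM in LKB1-deficient libraries. LKB1-deficient replicate 3 lay between the controls, and the other 3 lay above them. The log2 fold change was 0.55 ± 0.19 (SE, 95% interval 0.14 to 0.97), and the edgeR adjusted p of 0.0569 was the closest of the 10 genes to the threshold. Without LKB1-deficient replicate 3 Tnfaip3 passed as well (0.66, adjusted p = 0.0261). In that fit 2 of the 10 genes passed, both higher, against 26.7% of all tested genes (13.9% higher and 12.8% lower).

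In both groups replicate 1 has an identifier beginning ET and the other replicates identifiers beginning EU. The 10 genes are given for each set. LKB1-deficient replicate 1 was the highest of the 8 libraries for Nfkb1, Nfkb2, Rela, Nfkbie, Tnfaip3 and Bcl3. Control replicate 1 was the lowest for Nfkb1, Nfkb2, Tnfaip3 and Bcl3. Between the 2 ET libraries the log2 ratio was 1.27 for Tnfaip3, 0.99 for Bcl3, 0.77 for Nfkbie and 0.64 for Nfkb1, with no replicate in either arm. Among EU libraries alone the log2 fold changes of these genes were 0.31, 0.30, -0.30 and -0.04. Rel ran the other way, at -0.60 between the ET libraries and 1.13 among EU libraries (edgeR adjusted p = 0.0804), with no overlap between the EU groups. Relb kept its sign, at -0.42 and -0.25. So did Nfkbia, at 0.28 and 0.90, Nfkb2, at 0.49 and 0.02, Rela, at 0.48 and 0.08, and Nfkbib, at 0.09 and 0.02. The EU groups did not overlap for 3 of the 10 genes, Rel (higher), Nfkbie (lower) and Relb (lower), against 41.5% of all tested genes (20.3% higher and 21.2% lower). None of the 10 genes passed among EU libraries, against 17.6% of all tested genes (11.2% higher and 6.39% lower). An interaction term between group and prefix, added after these values were seen, was fitted in edgeR. Each ET arm is 1 library, so the fit takes its spread from the EU libraries and assumes that the lone ET libraries vary alike. No gene passed an adjusted p of 0.05, and at an unadjusted p under 0.05 there were 3 of the 10 genes (Nfkbie, Tnfaip3 and Nfkb1), against 7.47% of all tested genes. The interaction is given as a description of these libraries. The labels do not say what ET and EU mean.

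**Figure D2:**
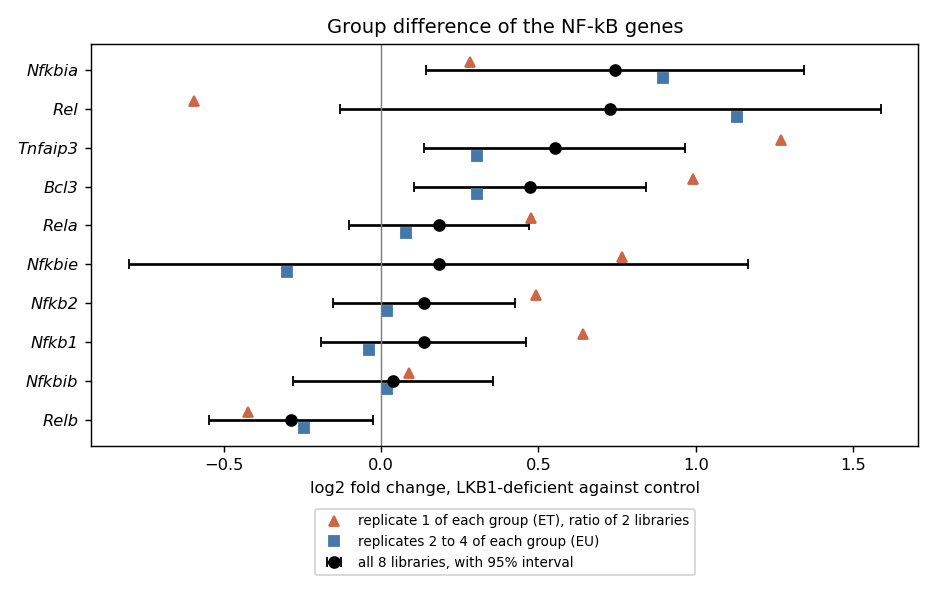
Log2 fold change, LKB1-deficient against control (horizontal axis), of each gene over all 8 libraries with its 95% interval (black), between the 2 replicate 1 libraries (triangles, no replicate) and over replicates 2 to 4 (squares). Nfkbia, Tnfaip3, Bcl3 and Relb have intervals that leave out 0, none with an adjusted p under 0.05, and the triangles and squares lie on opposite sides of 0 for Rel, Nfkbie and Nfkb1.

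The trend of level on transcript length differed between the libraries. Among the 10 genes the differences themselves did not follow length, the largest being that of Nfkbia (1578 bases, 0.74), the shortest. In each library a smooth trend on length was fitted to log2 CPM, each gene centred on its mean over all 8 libraries. The trend thus holds any group difference that goes with length, and removing it takes that difference away too. At the length of Rel (7466 bases, the longest of the 10) the trend stood at -0.34 and -0.35 in control replicates 3 and 4, the libraries low for Rel. It stood at -0.08 and -0.02 in control replicates 1 and 2, and at 0.02, 0.38, 0.09 and 0.35 in LKB1-deficient replicates 1 to 4. With these trends removed the log2 fold change of Rel went from 0.73 to 0.35 (edgeR adjusted p = 0.435) and that of Tnfaip3 (6199 bases) from 0.55 to 0.25 (adjusted p = 0.451). The shortest genes moved the opposite way. Nfkbia (1578 bases) went to 0.97 and Bcl3 (1850 bases) to 0.64, and both then passed (edgeR adjusted p = 0.0476 and 0.0153). So 2 of 10 genes were called higher under this setting, against 9.36% of all tested genes, and none lower, against 8.27% (17.6% in either direction). Relb stayed at -0.27.

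**Figure D3:**
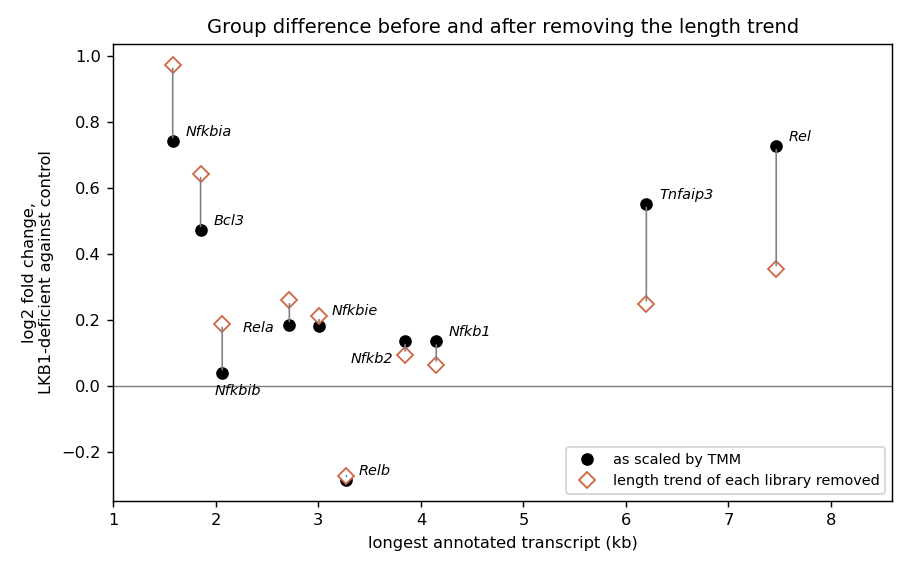
Log2 fold change, LKB1-deficient against control (vertical axis), of the 10 genes by the length of their longest annotated transcript in kb, before (black) and after (open diamonds) removing each library's trend on length. Rel and Tnfaip3, the longest, drop to 0.35 and 0.25, and Nfkbia and Bcl3, the shortest, go up to 0.97 and 0.64.

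Likeness across the 8 libraries was measured as the root mean square difference in log2 CPM, each gene centred on its own mean. Among 7692 other genes of at least 10 CPM, the nearest to Nfkb1 was Grsf1 (0.0651), to Nfkb2 Prosc (0.0314), to Rela Mrpl38 (0.0412), to Relb Tor1aip1 (0.0633) and to Rel Macf1 (0.154). The nearest to Nfkbia was Wdr3 (0.146), to Nfkbib Rhot2 (0.0711), to Tnfaip3 Anks1 (0.0898) and to Bcl3 Rap1gds1 (0.0852). Nfkbie had no close match, Hibch being nearest at 0.326. Within the family Nfkb1 and Nfkb2 were nearest to each other (0.103), but 33 of the 7692 genes were nearer to Nfkb1 and 49 nearer to Nfkb2. For Nfkbia 1903 of the 7692 genes were nearer than its nearest relative, Tnfaip3 (0.442).

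Around the family, 5 lists of pathway genes were counted in the same fit, in which 12.4% of all tested genes were higher and 10.1% lower. The lists were chosen with earlier results of these data known, so their counts are a description and not independent of these data. Of 8 IKK kinases and other IkB-like genes, 1 fell, none rose and 7 did not pass (median log2 fold change -0.10), a share near the 10.1% of all tested genes that were lower. The gene that fell was Ikbke, an IKK-related kinase, at 33.0, 24.7, 29.7 and 25.3 CPM in control and 16.6, 17.5, 17.3 and 17.2 CPM in LKB1-deficient libraries (log2 fold change -0.72 ± 0.14, SE, edgeR adjusted p = 0.00882). The 4 LKB1-deficient values were nearly equal and all lay below the controls. The call ended without both LKB1-deficient replicates 2 and 4 (adjusted p = 0.0685). Chuk, Ikbkb and Ikbkg, the subunits of the IKK complex itself, had log2 fold changes of 0.42, -0.33 and -0.25 and did not pass.

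Of 13 genes on the route from the antigen receptor to IKK, 1 fell and 12 did not pass (median -0.05), also near the 10.1% of all tested genes. The count was 0 without control replicate 1, without LKB1-deficient replicate 2 or 4, without both of these and among EU libraries, and 3 without LKB1-deficient replicate 3. Of all tested genes 15.7%, 10.5%, 9.61%, 2.37%, 17.6% and 26.7% passed in these fits, in that order. Among the genes of this list that did not pass, Bcl10 and Malt1 stood at 93.5 and 90.4 CPM in control and 90.6 and 83.6 CPM in LKB1-deficient cells. Of 9 genes of the TNF receptor and alternative routes none passed with edgeR or limma-voom (median 0.06). At an unadjusted p under 0.05 in edgeR there were 2 of 9 (Traf3 and Ripk1), against 39.3% of all tested genes, and 1 of 9 passed with DESeq2, against 29.3%. This list holds Map3k14, the kinase of the alternative pathway, at 16.8 ± 1.76 and 14.7 ± 1.7 CPM.

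Among 10 ubiquitin-editing and other negative regulators, 4 rose, none fell and 6 did not pass, against 12.4% higher and 10.1% lower over all tested genes (median 0.54 against 0.00). This list too was chosen with earlier results of these data known. N4bp1, a ubiquitin-binding suppressor of NF-kB, went from 47.3, 42.7, 42.5 and 43.1 CPM to 73.3, 111, 65.7 and 172 CPM (2.4-fold, edgeR adjusted p = 0.0128). Every LKB1-deficient library was above every control. Tnip2, which binds the product of Tnfaip3, rose 1.45-fold (adjusted p = 0.0201) and Tax1bp1, its adaptor, 2.05-fold (adjusted p = 0.0306). The call of Tnip2 ended with upper quartile (adjusted p = 0.0504) and total count scaling (0.116), without control replicate 3 (0.0686), without both LKB1-deficient replicates 2 and 4 (0.0544) and among EU libraries (0.0595). That of Tax1bp1 ended when any 1 of 5 libraries was left out, namely controls 1, 3 and 4 and LKB1-deficient replicates 2 and 4 (0.0608 to 0.0928), when both of the last were (0.292) and with the Xist term (0.0516). The count of 4 became 1 without control replicate 3, and 2 without control replicate 4 or LKB1-deficient replicate 2 or 4. Of all tested genes 22.5% passed in the main fit, and 9.69%, 12.5%, 10.5% and 9.61% in these fits, in that order. The list count was 1 without both LKB1-deficient replicates 2 and 4 (2.37% of all tested genes), where N4bp1 alone passed.

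In a list of 24 genes that NF-kB is known to drive in T cells, 13 rose, 3 fell, 7 missed the threshold and 1 was too low to test (median 0.61), against 12.4% higher and 10.1% lower over all tested genes. Other factors drive these genes as well, so the list is not a measure of NF-kB alone. It was also chosen with earlier results of these data known, so its excess over all genes is not an independent result. Il2ra, the high-affinity subunit of the IL-2 receptor, went from 248, 404, 433 and 477 CPM to 1163, 1137, 918 and 1132 CPM (2.79-fold, edgeR adjusted p = 0.00341). The LKB1-deficient libraries were close together and far above the controls. Cflar, an inhibitor of death receptor signalling, rose 2.57-fold (adjusted p = 0.00404). Csf2, encoding GM-CSF, was at 2.06 to 5.58 CPM in control and 18.5 to 115 CPM in LKB1-deficient libraries (14.5-fold, adjusted p = 0.00385). The 3 that fell were Bcl2a1b, an anti-apoptotic gene (1.93-fold lower, edgeR adjusted p = 0.00536), Irf1, an interferon regulatory factor (1.76-fold lower, adjusted p = 0.00561), and Ltb, encoding lymphotoxin beta (3.09-fold lower, adjusted p = 0.01). Bcl2a1b has near-identical copies, and non-unique alignments were left out of the gene counts. Of the 16 calls in all, the count was 5 when LKB1-deficient replicates 2 and 4 were both left out (2.37% of all tested genes) and 10 among EU libraries (17.6%). It was 10 without control replicate 1 (15.7% of all tested genes), control replicate 3 (9.69%) or LKB1-deficient replicate 4 (9.61%). A kappaB match lay in the windows of 7 of 19 genes of this list, 3 of 7 negative regulators, 1 of 6 IKK and IkB-like genes, 2 of 9 genes of the antigen receptor route and 1 of 8 of the TNF receptor route, against 9.55% of all genes with a window.

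**Figure D4:**
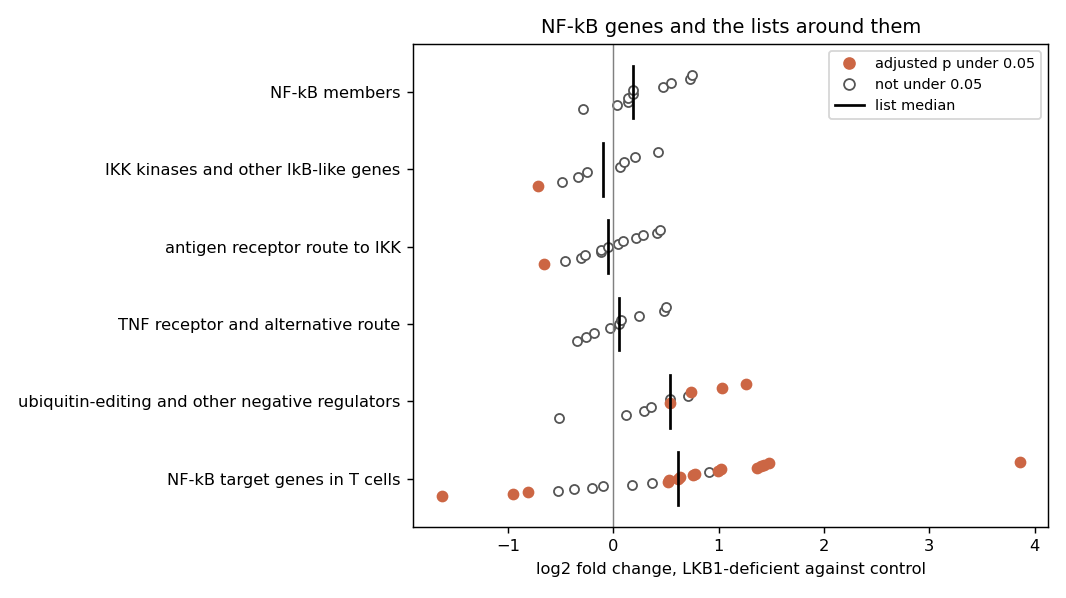
Log2 fold change, LKB1-deficient against control (horizontal axis), of each tested gene of the NF-kB family and of the 5 lists around it; filled points passed an adjusted p of 0.05 and vertical bars are list medians. No family member is filled, and 4 negative regulators and 16 target genes are, 3 of these to the left of 0. The lists were chosen with earlier results of these data known.

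Facts of the whole series that bear on these values were as follows. Gene counts came to 7090252 to 12211930 in control and 3454388 to 6356125 in LKB1-deficient libraries, and the lowest count of any of the 10 genes was 68, for Nfkbie in LKB1-deficient replicate 4. Stk11 was at 67.7 to 101 CPM in control and 64.3 to 107 CPM in LKB1-deficient libraries, and since how LKB1 was removed is not stated and only 3' tags were counted, this does not check the labels. The 8 T cell and CD8 markers were all tested, none rose and 3 fell (Cd3d, Cd3g and Cd8a), against 12.4% higher and 10.1% lower over all tested genes. Among those that did not pass, Cd3e, Cd2 and Thy1 had log2 fold changes of 0.32, 0.24 and 0.17, and Cd8b1 and Lck of -0.48 and -0.32. The summed level of the 8 markers was 4877 to 5149 CPM in control and 3253 to 4421 CPM in LKB1-deficient libraries. Summed markers of B cells came to 7.38 to 13.1 and 4.95 to 10.7 CPM, with Pax5 at 0 throughout and Cd79b lower. Those of myeloid and dendritic cells came to 8.52 to 12.7 and 8.96 to 19.8 CPM, with 2 of 10 tested and neither called. Those of CD4 T cells came to 6.55 to 9.06 and 3.23 to 8.99 CPM. Markers of mast cells and basophils came to 9.08 to 12.2 and 14.6 to 39.9 CPM. Of 5 tested, 2 were higher (Gata2 and Il1rl1) and none lower, against 12.4% higher and 10.1% lower over all tested genes. Gata2 was at 0.81 to 1.69 CPM in control and 0.56, 9.6, 2.36 and 8.34 CPM in LKB1-deficient replicates 1 to 4. Il1rl1 was at 1.69 to 5.11 CPM in control and 5.34 to 14 CPM in LKB1-deficient libraries. The part of the marked cell types in the differences of the target genes was not tested.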

How the data were processed

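The members and gene lists were chosen with earlier results of these data known. Each of the 8 files is a table of raw read counts per gene symbol that the authors deposited, 1 library per table. Per the submitters' processing notes, reads were aligned with STAR to mm10. The counting program, annotation and versions are not stated in the sources used. Per the labels' protocols, libraries were strand-specific and made with barcoded oligo-dT primers, with no molecular identifiers mentioned. The 5 closing lines naming no gene were left out, of which unannotated reads made 12.1% to 17.5% of gene, ambiguous and unannotated reads. Non-unique alignments, also left out, came to 2.92 to 3.50 per gene count in control and 2.21 to 2.65 in LKB1-deficient libraries. The effect of leaving them out was not tested.

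Counts were filtered (filterByExpr, minimum count 10, minimum total 15), TMM-scaled and tested without covariates by robust quasi-likelihood in edgeR 4.0.16 (R 4.3.3), adjusted by Benjamini-Hochberg over 10396 genes at a threshold of 0.05. No libraries were merged as duplicates, since within a group every pair had a chi-square of 11.6 to 49.05 times its degrees of freedom. SEs are the absolute log2 fold change over the square root of F, and 95% intervals follow from them. Likeness used a prior count of 2. Lengths and coordinates are GENCODE vM21 (GRCm38, the same assembly as mm10), with a length for 96.5% of tested genes, and promoters are RefSeq's.

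Alternatives were DESeq2 1.42.0 size factors and Wald test, scaling by total count or upper quartile, a filter at mean CPM 10 or none, limma-voom (limma 3.58.1), a replicate block, the identifier prefix as a term, each library left out, both LKB1-deficient replicates 2 and 4 left out, EU libraries only, thinning to 3454388 counts and removing the trend on length (lowess span 0.3). A term for high Xist (above 100 CPM) and the prefix interaction were added after the data were seen. Named genes were all 10 members, Stk11, up to 3 called genes per list and direction by smallest p, and the nearest gene to each member. Genes named beside these were chosen after their values were seen. The called gene of the antigen receptor list is not reported here.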

Additional observations from a re-analysis of the deposited data

Results flagged for a closer look

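In 3 of 20 groups of 4 values (10 genes in 2 groups) a single library stood apart by Dixon's ratio, above its 95% critical value, which chance exceeds in about 1 in 20. Nfkb1 was at 443.8 CPM in LKB1-deficient replicate 1, the next library being at 354 CPM. Nfkb2 was at 124.2 CPM in control replicate 1, the next being at 149 CPM. Nfkbie was at 88.75 CPM in LKB1-deficient replicate 1, the next being at 26.8 CPM. These values come from 2 libraries, the replicate 1 library of each group, which are the ET libraries.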

How the results depend on the processing

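Across 22 alternatives, Rel and Rela kept a positive sign and missed the threshold in all. Relb kept a negative sign, Nfkbia, Tnfaip3 and Bcl3 a positive sign, and none of the 10 genes passed in the opposite direction. The number of the 10 genes higher was 3 with DESeq2 (Nfkbia, Tnfaip3 and Bcl3), 2 with the length trend removed and 0 to 2 with 1 library left out. The number lower was 1 with upper quartile or total count scaling, and 0 with any 1 library left out. Nfkb1 turned to -0.0217 with total count scaling and -0.0368 among EU libraries, and Nfkb2 to -0.0263 with total count scaling. Nfkbib was -0.0645 with upper quartile and -0.13 with total count as the scale, -0.0012 without both LKB1-deficient replicates 2 and 4, -0.0025 when thinned, and -0.0523 to 0.105 with 1 library left out. Nfkbie was -0.0673 with limma-voom, -0.0194 with the prefix term, -0.30 among EU libraries and -0.56 to 0.44 with 1 library left out. Stk11 was 0.18 without both LKB1-deficient replicates, 0.10 among EU libraries and -0.22 to 0.0791 with 1 library left out. The cause was not tested.

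All called genes numbered 2337, 260 without both LKB1-deficient replicates 2 and 4 and 1011 to 2825 with 1 library left out, the lowest without control replicate 3. They numbered 1303, 1113 and 1017 without control replicate 4 and LKB1-deficient replicates 2 and 4. Fewer samples enter each of these fits. The split of 1286 higher and 1051 lower became 829 and 1576 under total count and 1023 and 1446 under upper quartile scaling. IKK and IkB-like genes called (1) were 2 with upper quartile or total count scaling, among EU libraries and with the length trend removed, 0 without both LKB1-deficient replicates 2 and 4, and 1 to 2 with 1 library left out. Antigen receptor route genes called (1) were 2 with upper quartile or total count scaling, at a mean CPM of at least 10, with DESeq2 and with the length trend removed. They were 0 without both LKB1-deficient replicates 2 and 4 and among EU libraries, and 0 to 3 with 1 library left out. TNF receptor route genes called (0) were 1 with DESeq2 and 0 to 1 with 1 library left out. Negative regulators called (4) were 1 without both LKB1-deficient replicates and 1 to 5 with 1 library left out. Target genes called (16) were 5 without both LKB1-deficient replicates, 10 among EU libraries and 10 to 16 with 1 library left out.

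With the replicate number as a replicate block, none of the 10 genes passed and Nfkbie was -0.0242. Same-numbered libraries correlated at -0.251, 0.291, 0.3 and -0.086 in their deviations from the group means, so the numbers were not taken as pairs. The lower depth of the LKB1-deficient libraries limits the precision of the least abundant genes.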
